A study of Mus musculus with 35 samples.

Results

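The calcium-calmodulin kinases Camk2a, Camk2b, Camk2d, Camk2g, Camk4, Camk1g, Camkk1 and Camkk2, the kinase-like gene Camkv and the inositol trisphosphate kinase gene Itpka were followed as every probe set that the array annotation gives to exactly 1 of these 10 genes. The annotation gave 28 such probe sets, of 45037 on the array that are not controls, and they read 9 of the 10 genes. Camk2d was read by 7 probe sets, Camk2a by 6, Camk4 by 5, Camkk2 by 4 and Camk2g by 2, and Camk2b, Camk1g, Camkv and Itpka by 1 each. Camkk1 has no value here. The genes were chosen by name and not by a threshold on measured values, but with earlier results of these data known. The shares called below therefore describe these genes and do not test the choice.

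RNA of brain hemispheres was measured on 35 Affymetrix mouse arrays. The groups were beta2 adrenergic receptor knockout mice with MCAO, an occlusion of the middle cerebral artery that cuts blood flow to much of 1 hemisphere, taken at 24 h (ischemic hemisphere, 7 arrays) and 24 h after sham surgery (control hemisphere, 3 arrays), wild-type mice after MCAO (7 arrays) and after sham surgery (3 arrays), and naive knockout (7 arrays) and naive wild-type mice (8 arrays). All mice were male and on the FVB background. Ages are not given in the sources used here, nor whether each array is a separate animal, so p-values measure the spread between arrays, which may be technical. Values are log2 RMA signals, a background-corrected and normalized summary of the probes in a set, and because the naive arrays had a normalization of their own, no value was compared between naive and surgery arrays.

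When calcium enters a neuron it binds calmodulin, and this complex switches on the kinases studied here. CaMKII, built from alpha, beta, delta and gamma subunits encoded by Camk2a, Camk2b, Camk2d and Camk2g, is among the most abundant proteins of the forebrain synapse and acts in synaptic plasticity. The kinase kinases encoded by Camkk1 and Camkk2 phosphorylate CaMKIV (Camk4), which phosphorylates the transcription factor CREB in the nucleus, the CaMKI group (Camk1g) and the energy sensor AMPK. Itpka converts inositol trisphosphate, the messenger that releases calcium from internal stores, to inositol tetrakisphosphate and bundles actin in dendritic spines, and Camkv encodes a pseudokinase of spines that binds calmodulin.

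Every probe set of Itpka, Camkv and Camkk2 was called lower after MCAO in both genotypes, as described below, and the DNA just before their start sites is shown for that reason. Each stretch runs to the last base before the annotated gene (RefSeq, GRCm38.p6), and capitals mark GGGCGG, the letters of the GC box to which Sp1-type factors bind, on either strand.
Itpka, chr2:119742087-119742336, + strand: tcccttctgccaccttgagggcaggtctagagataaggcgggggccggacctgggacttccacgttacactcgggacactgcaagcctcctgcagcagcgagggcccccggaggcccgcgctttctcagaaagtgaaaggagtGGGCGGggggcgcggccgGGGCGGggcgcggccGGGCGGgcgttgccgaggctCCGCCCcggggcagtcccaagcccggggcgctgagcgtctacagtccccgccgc
Camkv, chr9:107935670-107935850, + strand: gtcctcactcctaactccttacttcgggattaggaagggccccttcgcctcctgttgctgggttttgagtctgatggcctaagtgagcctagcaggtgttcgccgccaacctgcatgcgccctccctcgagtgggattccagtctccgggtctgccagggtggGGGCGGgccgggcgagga
Camkk2, chr5:122779523-122779660, - strand: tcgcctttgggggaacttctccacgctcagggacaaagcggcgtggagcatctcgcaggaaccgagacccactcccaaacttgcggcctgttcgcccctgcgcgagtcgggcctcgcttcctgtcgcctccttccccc
The Itpka stretch of 250 bases held 4 GC boxes, and 4.09% of all RefSeq promoter windows of that length held at least as many. The Camkv stretch of 181 bases held 1, where 21.2% of windows cut to that length held at least 1, and the Camkk2 stretch of 138 bases held 0, against 15.1% of windows with at least 1. In the cut windows the bases farthest upstream were kept. The whole windows of 300 bases held 4 GC boxes for Itpka, 3 for Camkv and 1 for Camkk2, where 35.7% of all windows held at least 1. TGACG, the half-site bound by CREB, was in none of the 3 stretches on either strand, and in 17.8%, 10.8% and 7.62% of all windows cut to the lengths of Itpka, Camkv and Camkk2. These matches describe the letters only.

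Some arrays stood apart before any gene was compared. In the wild-type naive set, array 6 correlated at r = 0.805 to 0.830 with the other naive arrays, which correlated at 0.978 to 0.999 with each other, and its Gapdh signal was 3.51 higher on log2 at the 3′ than at the 5′ probe set, a sign of degraded or incompletely copied RNA. Among the surgery arrays this Gapdh difference was 1.18, 0.38 and 0.0014 in knockout MCAO arrays 5, 2 and 4 and between -0.27 and -0.13 in the other 17. Pan-neuronal markers did not set every knockout MCAO array apart from sham. The mean signal of 8 such markers in knockout mice was 12.08 to 12.43 after MCAO and 12.36 to 12.46 after sham. Knockout MCAO arrays 2 and 5, at 12.43 and 12.41, lay within the sham range. In wild-type mice the mean was 11.96 to 12.26 after MCAO and 12.35 to 12.55 after sham. Of the 8 markers, 1 was called lower after MCAO in knockout and 2 in wild-type mice. The mean of 5 infiltrating leukocyte markers was 6.40 to 8.56 after MCAO and 6.02 to 6.24 after sham in knockout mice, and 7.89 to 8.68 after MCAO and 6.12 to 6.30 after sham in wild-type mice. RMA signals have no true zero, so no marker can be said to be at 0. Knockout MCAO arrays 7, 5 and 2 had the lowest leukocyte means of their group, 6.40, 6.78 and 6.86, against 7.64 to 8.56 in the other 4. On 6 endothelium and pericyte markers the median difference, MCAO minus sham, was 0.84 in knockout and 0.59 in wild-type mice, with 3 and 2 called higher. On 6 striatal medium spiny neuron markers it was -0.74 in knockout and -1.31 in wild-type mice, as large as many of the kinase differences below, with 0 and 2 called lower. Other neuron lists differed less. The median was -0.10 and -0.37 on 5 forebrain excitatory neuron markers, with 0 and 2 called lower. It was -0.03 and -0.14 on 6 GABAergic interneuron markers (0 and 1 called lower) and -0.20 and -0.37 on 6 hippocampal neuron markers (2 and 0 called lower). The striatal mean was 8.09 to 9.70 after MCAO and 9.13, 9.25 and 10.90 after sham in knockout mice, and 8.64 to 9.36 after MCAO and 8.75, 10.59 and 11.23 after sham in wild-type mice, so the sham arrays of each genotype differed among themselves. The part of cell makeup and RNA quality in the results below was not tested, and in a whole hemisphere fewer cells of a type and less RNA per cell cannot be told apart.

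Signals of the kinase genes were mostly lower after MCAO in both genotypes. In knockout mice 12 of the 28 probe sets were called lower and 1 higher (limma, Benjamini-Hochberg adjusted p under 0.05 over all probe sets), where 7.94% of all probe sets were called lower and 10.8% higher, 18.7% in all. In wild-type mice 14 were called lower and 1 higher, where 5.59% of all were called lower and 5.11% higher, 10.7% in all. The median log2 difference, MCAO minus sham, over the 28 was -0.54 in knockout and -0.73 in wild-type mice, beside -0.06 and 0.03 over all probe sets. In knockout mice the groups did not overlap for 9 probe sets that were lower and 1 that was higher (9.61% and 11.2% of all probe sets), and in wild-type mice for 13 and 1 (8.58% and 7.97% of all). Of the 28, 11 were called lower in both genotypes, 1 in knockout mice and not wild type, 3 in wild type and not knockout, 1 was higher in both and 12 were called in neither. The shares of all probe sets called in both genotypes or in 1 alone were not counted, so these joint counts only describe the members. The number called in knockout mice was 8 without knockout sham array 2, where 4040 of all probe sets were called. In wild-type mice it was 9 without wild-type sham array 1, where 2438 of all were called. Without the 3 knockout MCAO arrays with a raised Gapdh difference 12 were called, 11 of them lower, where 5290 of all were called.

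**Figure D1:**
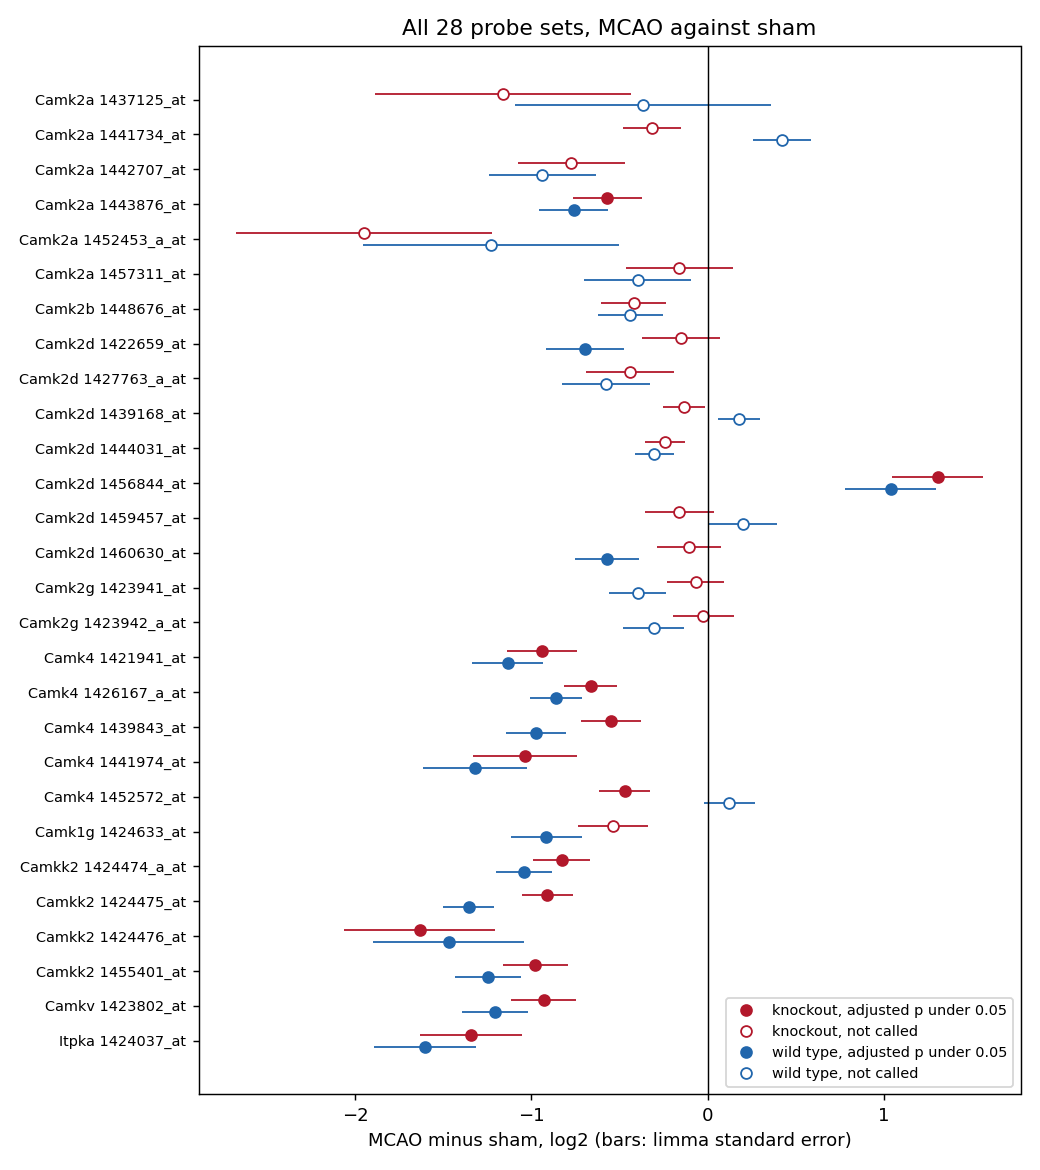
Difference in log2 signal, MCAO minus sham, for each of the 28 probe sets (vertical axis) in knockout (red, upper of each pair) and wild-type mice (blue), with limma standard errors as bars and filled points where the adjusted p was under 0.05. The Camkk2, Camkv and Itpka probe sets lie left of 0 in both genotypes, and Camk2d 1456844_at is the filled pair on the right.

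Itpka, read by 1424037_at, had the lowest signals relative to sham among the genes with a single probe set. In knockout mice its log2 signal after MCAO ran between 8.23 and 9.74 with a median of 8.94, against 10.04, 10.27 and 10.26 after sham. In wild-type mice it ran between 8.19 and 9.30 after MCAO with a median of 8.91, against 10.86, 10.03 and 10.31 after sham. Every MCAO array was below every sham array of its genotype, and the highest MCAO value was that of knockout array 7. Itpka fell by 1.34 on the log2 scale in knockout mice (SE 0.29, adjusted p = 0.00304, n = 7 and 3), a 2.54-fold lower signal, and by 1.60 in wild-type mice (SE 0.29, adjusted p = 0.00122, n = 7 and 3), a 3.04-fold lower signal. Both calls were kept under every alternative tried, with adjusted p up to 0.0231 in knockout and 0.0181 in wild-type mice. By group mean the order from low to high was wild-type MCAO (8.80 ± 0.49, SD), knockout MCAO (8.84 ± 0.52), knockout sham (10.19 ± 0.13) and wild-type sham (10.40 ± 0.42), and the genotypes were not called different after either surgery.

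Camkv (1423802_at) also fell in both genotypes. In knockout mice it measured 10.55 to 11.04 after MCAO, median 10.77, against 11.63, 11.77 and 11.62 after sham. In wild-type mice it measured 9.91 to 10.96 after MCAO, median 10.23, against 11.81, 11.43 and 11.58 after sham. The groups did not overlap, and the MCAO arrays were more spread in wild-type than in knockout mice (SD 0.41 and 0.19), a difference that was not tested. Camkv fell by 0.93 in knockout mice (SE 0.19, adjusted p = 0.00168) and by 1.21 in wild-type mice (SE 0.19, adjusted p = 0.000301), or 1.90-fold and 2.31-fold, and both calls were kept under every alternative tried.

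All 4 probe sets of Camkk2, the upstream kinase of CaMKI, CaMKIV and AMPK, were called lower in both genotypes. On 1424475_at, the smallest p of all members in both genotypes, knockout arrays measured 8.26 to 8.75 after MCAO, median 8.37, against 9.70, 9.25 and 9.22 after sham. On the same probe set wild-type arrays measured 8.28 to 8.59 after MCAO, median 8.37, against 10.09, 9.62 and 9.51 after sham. The MCAO arrays of both genotypes lay in 1 narrow band, well below the sham arrays. This probe set fell by 0.91 in knockout (SE 0.14, adjusted p = 0.000211) and by 1.36 in wild-type mice (SE 0.14, adjusted p = 6.62e-06). Camkk2 1455401_at fell by 0.98 in knockout (adjusted p = 0.0012) and 1.25 in wild-type mice (adjusted p = 0.00023), and 1424474_a_at by 0.83 (adjusted p = 0.00134) and 1.04 (adjusted p = 0.000302). These 3 probe sets kept their calls in both genotypes under every alternative tried. The dimmest, 1424476_at, differed by -1.63 in knockout (SE 0.43, adjusted p = 0.0122) and -1.47 in wild-type mice (SE 0.43, adjusted p = 0.0319), and it was called in 16 of 19 alternatives in knockout and 10 of 18 in wild-type mice. It was not called in knockout mice without the 3 MCAO arrays with a raised Gapdh difference (-1.13, adjusted p = 0.0737), nor without knockout sham array 1 or 2. In wild-type mice it was not called without any 1 of the 3 sham arrays or of MCAO arrays 3, 4 and 6.

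**Figure D2:**
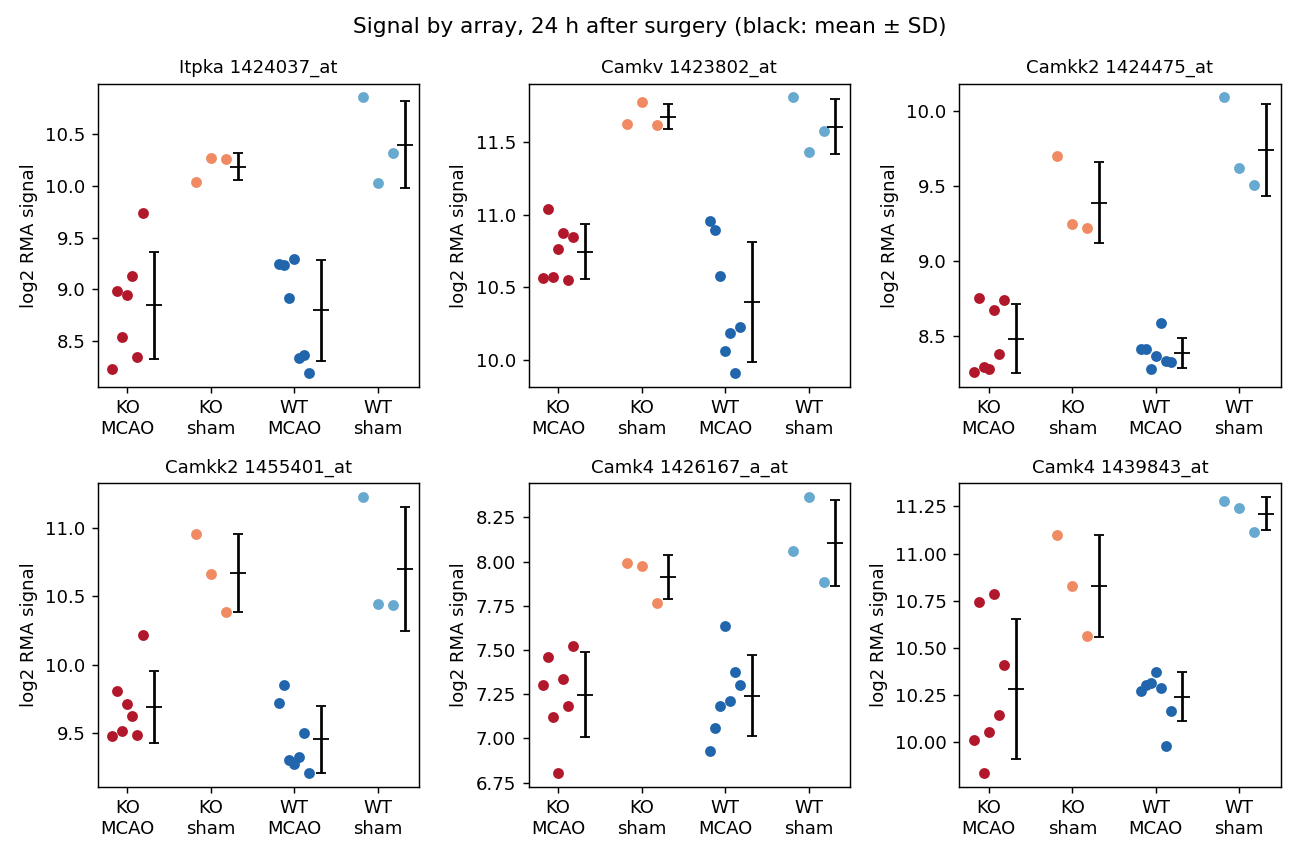
Log2 RMA signal of 6 probe sets of Itpka, Camkv, Camkk2 and Camk4 on each surgery array (points, left to right knockout MCAO, knockout sham, wild-type MCAO, wild-type sham), with the group mean and SD in black. In 5 of the panels all MCAO arrays lie below the sham arrays of the same genotype, while for Camk4 1439843_at the knockout MCAO arrays reach 10.79 and the lowest knockout sham array is at 10.56.

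Of the 5 probe sets of Camk4, the nuclear kinase that acts on CREB, 5 were called lower in knockout mice and 4 in wild-type mice. The smallest p in wild-type mice was that of 1426167_a_at. Its knockout signals were 6.81 to 7.52 after MCAO, median 7.30, against 7.99, 7.98 and 7.77 after sham. Its wild-type signals were 6.93 to 7.64 after MCAO, median 7.21, against 8.06, 8.36 and 7.88 after sham. No MCAO array reached the sham range, and the probe set fell by 0.66 in knockout (SE 0.15, adjusted p = 0.00446) and 0.86 in wild-type mice (SE 0.15, adjusted p = 0.000926), with the call kept under every alternative. Camk4 1421941_at fell by 0.94 in knockout and 1.13 in wild-type mice and also kept both calls, although its groups nearly touched in knockout mice, where the highest MCAO array and the lowest sham array were both at 6.44. Camk4 1441974_at fell by 1.04 and 1.32 and 1439843_at by 0.55 and 0.97 in knockout and wild-type mice; both kept the wild-type call throughout, and in knockout mice the call was kept in 16 and 13 of 20 alternatives. Knockout sham array 1 or 2, when left out, ended each of these knockout calls.

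The remaining Camk4 probe set, 1452572_at, went its own way. Knockout arrays measured 6.04 to 6.68 after MCAO, median 6.28, against 6.63, 6.67 and 6.93 after sham. Wild-type arrays measured 6.21 to 6.89 after MCAO, median 6.47, against 6.06, 6.46 and 6.43 after sham, so that 2 of the 3 wild-type sham arrays lay within the MCAO range and 1 lay below it. The difference was -0.47 in knockout mice (SE 0.15, adjusted p = 0.0294) and 0.12 in wild-type mice (SE 0.15, adjusted p = 0.621), and the test of the difference between genotypes gave -0.59 (SE 0.21, adjusted p = 0.0728). The knockout call was lost without the 3 MCAO arrays with a raised Gapdh difference (-0.34, adjusted p = 0.162). Which stretch of the transcript each probe set reads is not given in the sources used here.

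Camk1g, a CaMKI-type kinase, was lower after MCAO on its 1 probe set, 1424633_at. Its knockout signals were 8.60 to 9.22 after MCAO, median 8.96, against 9.49, 9.55 and 9.41 after sham. Its wild-type signals were 8.10 to 9.43 after MCAO, median 8.64, against 9.83, 9.56 and 9.32 after sham. The knockout groups did not overlap, and in wild-type mice only MCAO array 4, at 9.43, reached the sham range. The change passed the test in wild-type mice (-0.91, SE 0.20, adjusted p = 0.00533) and not in knockout mice (-0.54, SE 0.20, adjusted p = 0.0645), and the difference between genotypes was not called (0.38, SE 0.28, adjusted p = 0.378). Without wild-type sham array 1 the wild-type adjusted p was 0.0525.

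CaMKII subunit genes were less uniform. For Camk2a, the alpha subunit of forebrain excitatory neurons, 1 of 6 probe sets was called, 1443876_at, in both genotypes. In knockout mice it measured 8.70 to 9.67 after MCAO, median 8.79, against 9.61, 9.69 and 9.67 after sham. In wild-type mice it measured 9.15 to 9.43 after MCAO, median 9.26, against 10.18, 9.71 and 10.26 after sham. The wild-type groups were apart, while the knockout MCAO arrays formed 2 bands, arrays 2, 5 and 7 at 9.46 to 9.67 and the other 4 at 8.70 to 8.79. Arrays 2, 5 and 7 were also those with the lowest leukocyte marker means. Their means of 5 forebrain excitatory neuron markers were the highest, 10.41, 10.55 and 10.27, against 9.75 to 10.02 in the other 4. Their means of 6 striatal medium spiny neuron markers were the lowest, 8.999, 8.738 and 8.087, against 9.199 to 9.703 in the other 4. The neuron lists thus did not share a direction on these arrays, and the part of these markers in the bands was not tested. The difference was -0.57 in knockout (SE 0.19, adjusted p = 0.046) and -0.76 in wild-type mice (SE 0.19, adjusted p = 0.0152). The knockout call held in 9 of 20 alternatives, and the wild-type call in 17 of 19, failing without wild-type sham array 1 or 3.

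The other Camk2a probe sets were not called, and on a pair of them the lowest knockout MCAO values lay on the arrays with a raised Gapdh difference. On 1437125_at knockout MCAO arrays 5 and 2 measured 6.92 and 8.21 and the other 5 measured 10.24 to 12.06, against 10.75 to 11.38 after sham. On 1452453_a_at knockout MCAO arrays 5, 4 and 2 measured 5.16, 6.38 and 6.58 and the other 4 measured 8.73 to 10.07, against 9.42 to 9.95 after sham. The differences in knockout mice were -1.16 (SE 0.73, adjusted p = 0.262) and -1.95 (SE 0.73, adjusted p = 0.0645), and without these 3 arrays they were -0.03 and -0.62. Naive knockout array 4, whose Gapdh difference of 0.15 was the highest of its group, was likewise lowest on both probe sets, at 8.94 and 7.80. In wild-type mice, where no MCAO array had a raised Gapdh difference, the differences were -0.37 (adjusted p = 0.783) and -1.23 (adjusted p = 0.293). Camk2a 1442707_at differed by -0.77 in knockout (SE 0.30, adjusted p = 0.0784) and -0.94 in wild-type mice (SE 0.30, adjusted p = 0.0517), 1457311_at by -0.16 and -0.40, and 1441734_at by -0.32 and 0.42. Without knockout MCAO array 7, which at 11.44 was far above the other 6 on 1442707_at, that knockout difference was -0.92 (adjusted p = 0.0254), and that of 1452453_a_at was -2.33 (adjusted p = 0.0173).

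**Figure D3:**
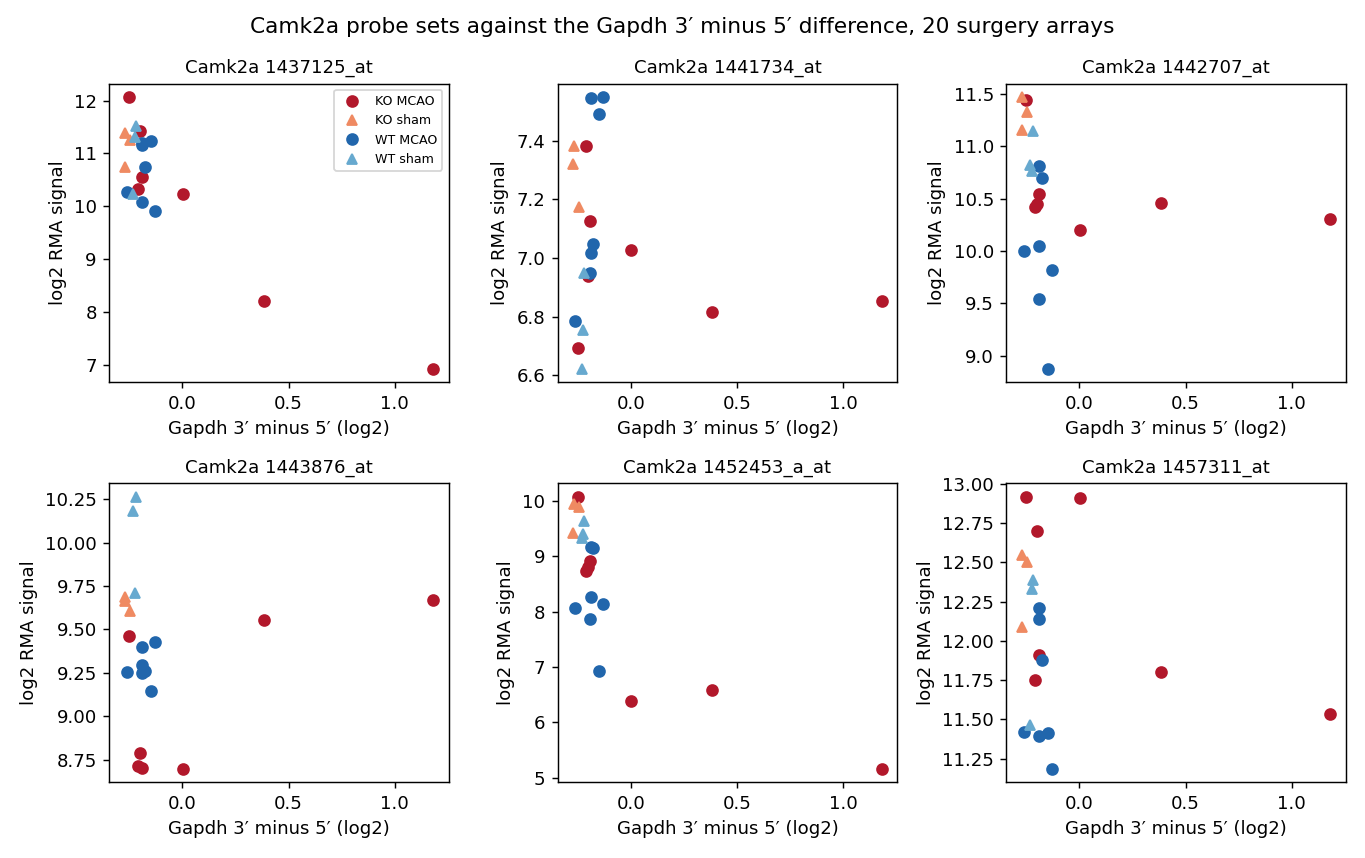
Log2 RMA signal of the 6 Camk2a probe sets on the 20 surgery arrays against the log2 difference between the 3′ and 5′ Gapdh probe sets of the same array (circles MCAO, triangles sham, red knockout, blue wild type). The arrays at 0.38 and 1.18 hold the lowest values on 1437125_at and lie high within the knockout MCAO arrays on 1443876_at.

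Camk2b, the beta subunit that binds actin, was not called in either genotype. Its 1448676_at signal in knockout mice was 10.93 to 11.86 after MCAO, median 11.28, against 11.77, 11.68 and 11.81 after sham, and it differed by -0.42 (SE 0.18, adjusted p = 0.11). In wild-type mice it was 10.84 to 11.34 after MCAO, median 11.19, against 11.95, 11.42 and 11.28 after sham, and it differed by -0.44 (SE 0.18, adjusted p = 0.133). Knockout MCAO arrays 2 and 5, at 11.86 and 11.72, were the ones that reached the sham range, and without the 3 arrays with a raised Gapdh difference the knockout difference was -0.56 (adjusted p = 0.0304). Neither probe set of Camk2g, the gamma subunit, was called: 1423941_at differed by -0.07 in knockout (adjusted p = 0.795) and -0.40 in wild-type mice (adjusted p = 0.126), and 1423942_a_at by -0.02 and -0.30 (adjusted p = 0.931 and 0.275).

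Camk2d, the delta subunit best known from heart, held the 1 probe set that rose. On 1456844_at knockout arrays measured 5.40 to 6.94 after MCAO, median 5.88, against 4.51, 4.54 and 4.82 after sham. Wild-type arrays measured 5.21 to 5.98 after MCAO, median 5.62, against 4.12, 5.02 and 4.50 after sham. Every MCAO array was above every sham array of its genotype, and the probe set rose by 1.31 in knockout (SE 0.26, adjusted p = 0.00158) and 1.04 in wild-type mice (SE 0.26, adjusted p = 0.0127). The wild-type call was lost without wild-type sham array 1 or 3. The probe set lay below the median signal of the array, and the other 6 of Camk2d did not share its direction of call: none was called in knockout mice, with differences of -0.44 to -0.10, and in wild-type mice 1422659_at (-0.70, SE 0.22, adjusted p = 0.0478) and 1460630_at (-0.57, SE 0.18, adjusted p = 0.0496) were called lower at the edge of the threshold. These wild-type calls held in 9 of 19 and 8 of 18 alternatives. The values thus give no single direction for the gene.

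The question of whether loss of the receptor altered the response to MCAO was put to the members through the interaction, the knockout difference minus the wild-type difference. None of the 28 was called, where 7.41% of all probe sets were. Unadjusted p was under 0.05 for 3 of the 28 and for 13006 of all 45037 probe sets. The smallest adjusted p was that of Camk2a 1441734_at (-0.74, SE 0.23, adjusted p = 0.0544), followed by Camk4 1452572_at given above and by Camkk2 1424475_at (0.45, SE 0.20, adjusted p = 0.148). Camk2a 1441734_at ran from 6.69 to 7.38 after MCAO, median 6.94, against 7.17, 7.38 and 7.32 after sham in knockout mice. In wild-type mice it ran from 6.79 to 7.55 after MCAO, median 7.05, against 6.62, 6.75 and 6.95 after sham. The sham arrays of the genotypes did not overlap on this probe set and the MCAO arrays did. Without knockout MCAO array 1 this probe set and Camk4 1452572_at were called (-0.81 and -0.66, adjusted p = 0.0277 and 0.0333), and without wild-type MCAO array 3 or 5 the Camk2a probe set alone was called. Of all 45037 probe sets these fits called, in the same order, 5362, 4305 and 3928 in the interaction. The interaction for Itpka was 0.26 (SE 0.41, adjusted p = 0.695) and for Camkv 0.28 (SE 0.26, adjusted p = 0.497).

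Between genotypes within a surgery no member was called. After MCAO, knockout against wild type called 0 of 28 where 0.131% of all probe sets were called. Unadjusted p was under 0.05 for 6 members and for 7533 of all 45037 probe sets. The smallest adjusted p was 0.165, for Camk2d 1422659_at, at 8.44 ± 0.29 in knockout and 7.92 ± 0.39 in wild-type mice (SD, n = 7 each). Camkv was 0.34 higher in knockout mice by the fitted difference (SE 0.14, adjusted p = 0.245). Beside these values stand the leukocyte marker means of 7.46 ± 0.81 in knockout and 8.17 ± 0.27 in wild-type MCAO arrays. After sham 0 of 28 were called where 4.67% of all probe sets were. Unadjusted p was under 0.05 for 5 members and for 10886 of all 45037 probe sets. The smallest adjusted p was that of Camkk2 1424474_a_at (-0.51, SE 0.19, adjusted p = 0.109). It was at 10.98, 10.58 and 10.41 in knockout against 11.14, 11.24 and 11.11 in wild-type mice. The actin 3′ minus 5′ difference of the sham arrays was 1.60 to 1.76 in knockout and 0.86 to 1.01 in wild-type mice, so RNA quality by that measure and genotype cannot be told apart in the sham groups. On the MCAO arrays it was 0.43 to 1.75 in knockout and 0.39 to 1.70 in wild-type mice. Counts with it as a covariate are given below.

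The naive comparison carries a limit of its own. Any 2 of the 7 knockout naive arrays shared 1743 to 2876 probe sets of identical value, against 1 to 48 for pairs of wild-type naive arrays, the array medians were 7.02 to 7.05 in knockout and 6.87 to 6.90 in wild-type mice without array 6, and the array minima were 3.19 to 3.28 and 3.49 to 3.60. Processing and genotype cannot be told apart in these values. With all arrays 1 of 28 probe sets was called, where 20.1% of all were called and 8.02% of all were higher in knockout mice: Camk2a 1457311_at, at 12.59 to 13.69 in knockout and 11.89 to 13.46 in wild-type mice, was 0.76 higher in knockout mice (SE 0.21, adjusted p = 0.0206). The groups overlapped because wild-type array 3 was at 13.46, while the other 7 wild-type arrays were at 12.51 or below.

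Without wild-type array 6 the naive comparison called 7 of 28, all higher in knockout mice, where 39.8% of all probe sets were called and 23.7% were higher. They were Camk2a 1457311_at (0.70), Camk2d 1460630_at (0.57), 1439168_at (0.37) and 1456844_at (0.33), Camkk2 1424475_at (0.37) and 1455401_at (0.24) and Itpka (0.33, SE 0.07, adjusted p = 0.00218). Itpka measured 11.15 to 11.25 in knockout mice, median 11.18, against 10.60 to 11.10 in wild-type mice without array 6, with no overlap. Wild-type array 6 itself was at 7.31 for Itpka, 7.70 for Camkv and 7.86 for Camk2b, where the other naive arrays of its group lay at 10.60 to 11.10, 12.16 to 12.38 and 11.78 to 12.24. Camkv did not differ in call (-0.05, SE 0.05, adjusted p = 0.398), nor did Camk2b, Camk2g, Camk1g or any Camk4 probe set. With quantile normalization repeated and array 6 left out, Itpka stayed called (0.29, adjusted p = 0.0271) and neither Camkk2 probe set did.

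**Figure D4:**
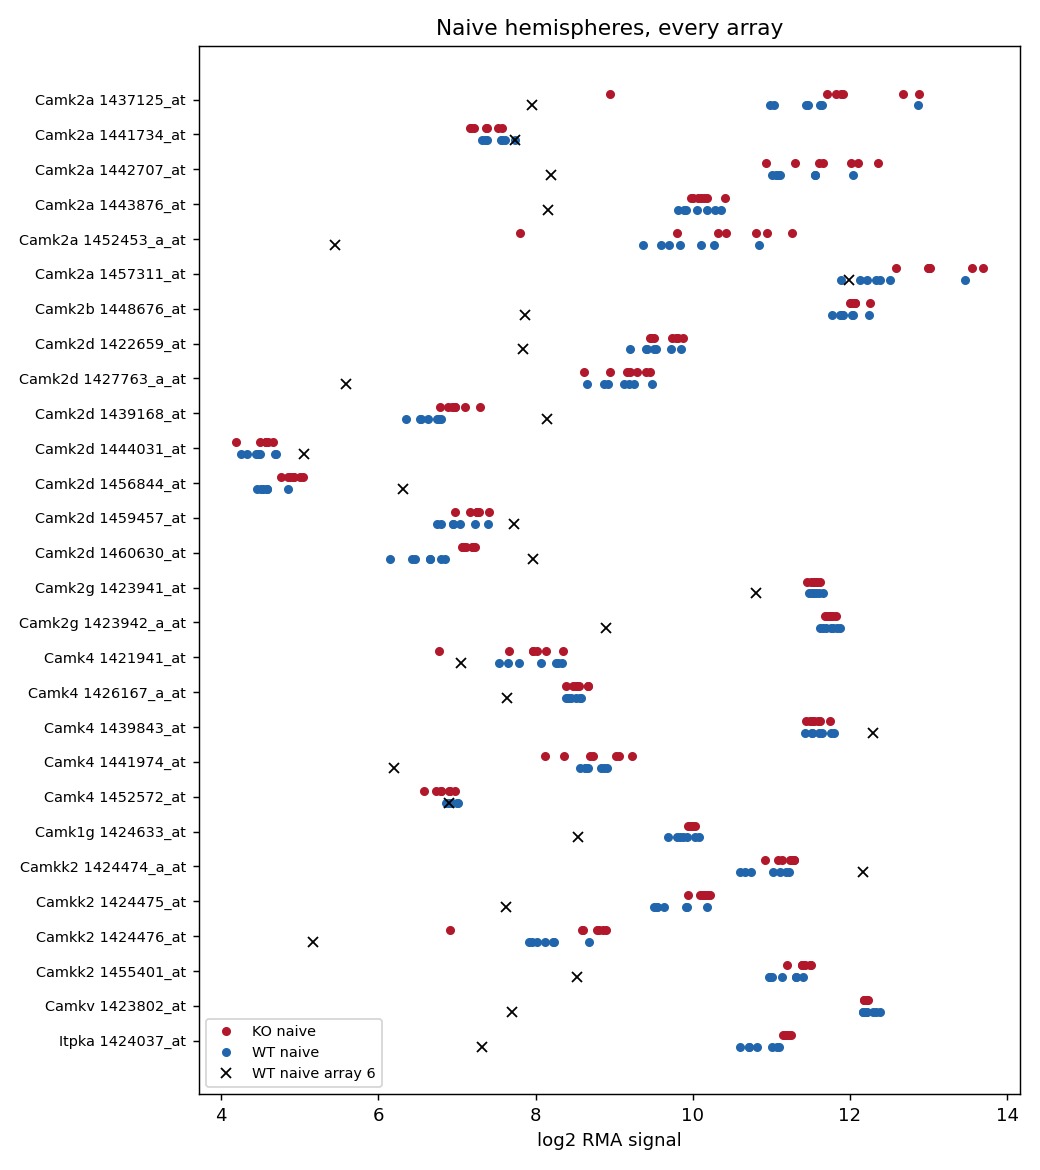
Log2 RMA signal of the 28 probe sets (vertical axis) on each naive array, knockout in red above wild type in blue, with wild-type array 6 as a black cross. The cross lies far from the other wild-type arrays on most rows, at 7.31 for Itpka against 10.60 to 11.10.

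Other genes of calcium and calmodulin signalling were read on the brightest probe set of each gene, in 9 lists of 100 genes of which 92 were measured and 8 were not analysed here. In knockout mice 10 were lower after MCAO and 8 higher, where 7.59% of all genes were lower and 14.9% higher, 22.5% in all. In wild-type mice 27 were lower and 4 higher, where 6.26% were lower and 7.41% higher, 13.7% in all. None of the 92 was called in the interaction, where 8.03% of genes were, or between genotypes after MCAO (0.077% of genes) or sham (5% of genes), so the unequal counts do not show a difference between the genotypes. The median difference over the 92 was -0.17 in knockout and -0.30 in wild-type mice. Of the genes not called on their brightest probe set, 15 in knockout and 5 in wild-type mice had another probe set that was called, so these counts depend on the probe set read.

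**Figure D5:**
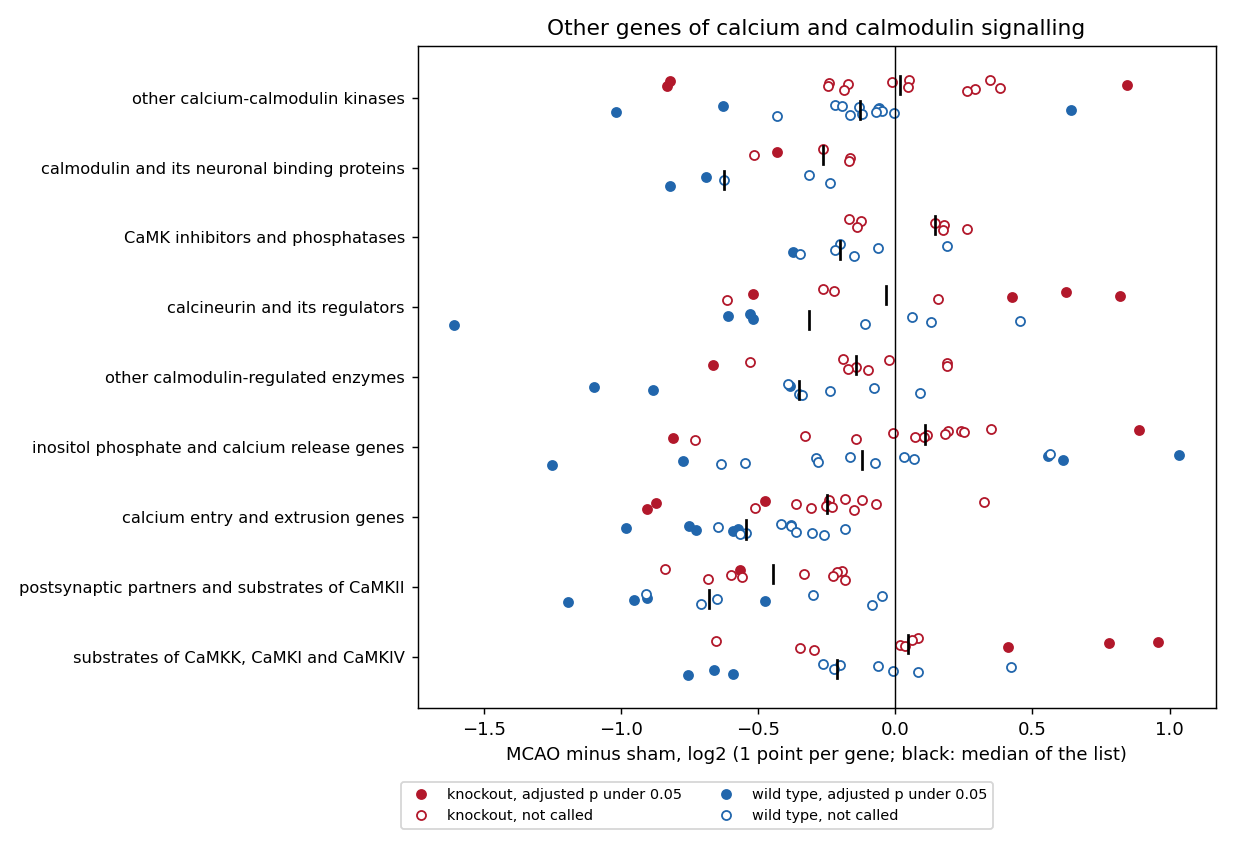
Difference in log2 signal, MCAO minus sham, of each gene in the 9 lists (vertical axis), knockout in red above wild type in blue, filled where the adjusted p was under 0.05, with the median of each list as a black line. The lists of calcium entry genes and of CaMKII partners lie mostly left of 0 in both genotypes.

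Among 14 other calcium-calmodulin kinases, Phkg1, the catalytic subunit of phosphorylase kinase, fell by 0.83 in knockout and 1.02 in wild-type mice, and Pnck, a CaMKI relative, by 0.82 and 0.63. Mylk, the myosin light chain kinase of smooth muscle, rose by 0.85 and 0.64, and the other 11 were not called in either genotype. Of 5 calmodulin-binding proteins, Gap43 of growing axons fell by 0.43 in knockout and 0.69 in wild-type mice. Marcks, a protein kinase C substrate, differed by -0.17 in knockout (adjusted p = 0.409) and -0.82 in wild-type mice (adjusted p = 0.000915), and 1 of its 7 probe sets was called lower in knockout mice. Of 7 CaMK inhibitors and phosphatases 0 were called in knockout and 1 in wild-type mice, the phosphatase gene Ppp1ca (-0.37, adjusted p = 0.0422), and Camk2n1, which encodes a CaMKII inhibitor, differed by -0.17 and -0.20 on its brightest probe set, while 1 of its 2 probe sets was called lower in both genotypes. Of 4 probe sets of the phosphatase gene Ppp1cb, 2 were called higher in knockout mice and 1 lower in wild-type mice.

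Of 8 calcineurin genes, which encode the calcium-calmodulin phosphatase and its regulators, 3 were higher and 1 lower in knockout mice, and 4 were lower in wild-type mice. Akap5, the anchor that holds calcineurin at the synapse, differed by -0.62 in knockout (adjusted p = 0.0553) and -1.61 in wild-type mice (adjusted p = 9.79e-05). The catalytic subunits Ppp3ca and Ppp3cb differed by -0.26 and -0.23 in knockout mice and fell by 0.53 and 0.61 in wild-type mice. A further probe set of Ppp3cb was called higher in knockout mice. The calcineurin inhibitor gene Rcan1 rose by 0.82 in knockout mice and differed by 0.46 in wild-type mice (adjusted p = 0.0669). The other called genes, named after their values were seen, were Ppp3r1 (lower in both), Ppp3cc and Rcan2 (higher in knockout). Of 9 other calmodulin-regulated enzymes Pde1b, a cyclic nucleotide phosphodiesterase, fell by 0.67 in knockout and 0.89 in wild-type mice, and the adenylyl cyclase genes Adcy8 and Adcy3 fell by 1.10 and 0.39 in wild-type mice, with -0.53 and -0.02 in knockout mice.

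Of 14 genes of inositol phosphates and calcium release, Itpkc, a paralog of Itpka, rose on its brighter probe set. The rise was 0.89 in knockout (adjusted p = 0.0052) and 1.04 in wild-type mice (adjusted p = 0.00257), opposite in direction to Itpka. Its dimmer probe set was lower after MCAO in both genotypes and was not called, so the 2 probe sets give no single direction for the gene. Itpkb, the third inositol trisphosphate 3-kinase, differed by 0.35 and 0.56 and was not called. Itpk1, which acts later in inositol phosphate turnover, differed by 0.24 in knockout (adjusted p = 0.0653) and rose by 0.56 in wild-type mice (adjusted p = 0.000465), and the phospholipase gene Plcb1 differed by -0.33 in knockout and fell by 0.77 in wild-type mice on its brightest probe set. Of the 5 Plcb1 probe sets 4 were called lower in each genotype. Of 15 genes of calcium entry and extrusion 3 were lower in knockout and 6 in wild-type mice, none higher. Both genotypes shared the calcium channel gene Cacna1e (-0.48 and -0.75) and the NMDA receptor subunit gene Grin2a (-0.87 and -0.98).

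Of 10 postsynaptic partners and substrates of CaMKII 1 was lower in knockout mice, the scaffold gene Shank3 (-0.57, adjusted p = 0.016), and 4 in wild-type mice. These were the scaffold gene Homer1 (-0.91, adjusted p = 0.0035, and -0.21 in knockout), the actin cross-linker gene Actn2 (-1.19, adjusted p = 0.00697, and -0.56 in knockout), Kalrn and Tiam1. Of 10 substrates of CaMKK, CaMKI and CaMKIV 3 were higher in knockout mice and 3 lower in wild-type mice. Crem, a CREB relative, rose by 0.96 in knockout mice (adjusted p = 0.000542) and differed by 0.42 in wild-type mice (adjusted p = 0.111). The transcription factor gene Mef2c differed by -0.30 in knockout and fell by 0.76 in wild-type mice, and the AMPK subunit genes differed with Prkaa1 at 0.78 in knockout (adjusted p = 0.0191) and Prkaa2 at -0.66 in wild-type mice (adjusted p = 0.0462). Hdac4 was the other gene higher in knockout and Hdac5 the other gene lower in wild-type mice. In the naive set, 9 of the 92 were called higher in knockout mice with all arrays (Dapk2, Mylk3, Phkg1, Nos1, Itpr3, Plcg1, Ryr1, Cacna1c and Atp2b4), where 16.2% of genes were called and 7.2% were higher. Without wild-type array 6, 32 were higher and 1 lower, where 36.4% of genes were called and 24.1% were higher, under the limit on processing given above.

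The genes whose signal followed Itpka most closely over the 20 surgery arrays were Stmn1 (Pearson r = 0.96), Abca9 (0.95), Prmt8 (0.95), Mpp3 (0.94) and Tmem44 (0.94). Over the 14 MCAO arrays, with each group's mean taken out, the same genes correlated at 0.76 to 0.94. Those nearest Camk2b were Gm3764 (0.92), Mapt (0.90), Syp (0.89), Adgrl1 (0.88) and Srcin1 (0.88), and 0.80 to 0.90 within the MCAO groups. These are descriptions over arrays that share groups, normalization and tissue makeup.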

How the data were processed

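RNA from brain hemispheres was measured on Affymetrix mouse arrays. Deposited values are on the log2 scale, made by the authors; RMA is named in the submitters' processing notes without a version, and the labels say that naive arrays had their own normalization. The deposited table held 45101 probe sets, of which 64 controls were left out; 34945 of the rest had 1 gene symbol in the platform annotation, 932 had several and 9160 had none listed. Only probe sets with 1 symbol were assigned to a member.

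Each array took its group from its label. A linear model per probe set (limma 3.58.1 under R 4.3.3: lmFit, then contrasts.fit and eBayes) was fitted once to the 20 surgery arrays and once to the 15 naive arrays, with Benjamini-Hochberg adjustment over all 45037 probe sets and calls at adjusted p under 0.05. Probe sets of 1 gene are not replicates. Standard errors are limma's moderated ones, and the number of arrays limits the precision. The procedure was tested on simulated data. Values of the receptor gene itself are not reported here.

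Named genes were every member probe set, up to 4 genes per list with the smallest p after MCAO, list genes called between genotypes or in the interaction, and the 5 genes most correlated with Itpka and with Camk2b. The members and lists were chosen with earlier results of these data known. Alternatives were a stricter threshold, 1 probe set or the mean per gene, an intensity trend with robust prior, leaving out dim probe sets, median centring, repeated quantile normalization, array weights, a replicate block, a Gapdh covariate, a fit to the compared groups alone, and dropping 1 array at a time. An actin covariate and fits without arrays of raised Gapdh difference, or without wild-type naive array 6 before repeated quantile normalization, were added after the data were seen. Promoter letters came from RefSeq windows (GRCm38.p6), present for 7 of the 10 genes, and were cut before the annotated gene.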

Additional observations from a re-analysis of the deposited data

Results flagged for a closer look

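In each group of 7 or 8 arrays the highest and the lowest log2 signal of each member probe set was set against the rest, and 35 of 112 combinations of probe set and group held an array far from the others by Dixon's criterion. For independent normal values about 1 group in 20 would meet it. The member probe sets share arrays, and the share over all probe sets was not counted, so the number cannot tell whether outlying arrays are particular to these genes. Wild-type naive array 6 accounts for 22. It was far below its group for Camk2a 1437125_at (7.95, the others 10.98 to 12.86), Camk2a 1442707_at (8.20, the others 11.01 to 12.04), Camk2a 1443876_at (8.16, the others 9.82 to 10.36), Camk2a 1452453_a_at (5.44, the others 9.37 to 10.84), Camk2b 1448676_at (7.86, the others 11.78 to 12.24), Camk2d 1422659_at (7.84, the others 9.20 to 9.85), Camk2d 1427763_a_at (5.59, the others 8.65 to 9.48), Camk2g 1423941_at (10.80, the others 11.48 to 11.66), Camk2g 1423942_a_at (8.90, the others 11.62 to 11.87), Camk4 1426167_a_at (7.63, the others 8.38 to 8.58), Camk4 1441974_at (6.20, the others 8.57 to 8.91), Camk1g 1424633_at (8.54, the others 9.68 to 10.08), Camkk2 1424475_at (7.62, the others 9.51 to 10.18), Camkk2 1424476_at (5.16, the others 7.92 to 8.67), Camkk2 1455401_at (8.52, the others 10.97 to 11.40), Camkv 1423802_at (7.70, the others 12.16 to 12.38) and Itpka 1424037_at (7.31, the others 10.60 to 11.10). It was far above its group for Camk2d 1439168_at (8.14, the others 6.35 to 6.80), Camk2d 1456844_at (6.31, the others 4.45 to 4.85), Camk2d 1460630_at (7.97, the others 6.14 to 6.85), Camk4 1439843_at (12.29, the others 11.43 to 11.80) and Camkk2 1424474_a_at (12.16, the others 10.60 to 11.22).

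Naive knockout array 4, with the highest Gapdh 3′ minus 5′ difference of its group, stood apart on 6 probe sets: Camk2a 1437125_at (8.94, the others 11.71 to 12.88), Camk2a 1452453_a_at (7.80, the others 9.80 to 11.27), Camk2b 1448676_at (12.26, the others 12.004 to 12.07), Camk2d 1444031_at (4.19, the others 4.49 to 4.66), Camkk2 1424476_at (6.91, the others 8.59 to 8.89) and Camkk2 1455401_at (11.20, the others 11.39 to 11.51).

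Among knockout MCAO arrays, array 7 stood apart for Camk2a 1442707_at (11.44, the others 10.20 to 10.54), array 3 for Camk2d 1439168_at (6.14, the others 5.84 to 5.92), and array 4 for Camk2d 1459457_at (5.77, the others 6.49 to 6.94) and Camk4 1441974_at (5.59, the others 6.81 to 7.25). Wild-type MCAO array 4 stood apart for Camk2g 1423941_at (10.01, the others 10.57 to 10.92) and Camk2g 1423942_a_at (10.27, the others 10.63 to 10.87), and wild-type naive array 3 for Camk2a 1457311_at (13.46, the others 11.89 to 12.51).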

How the results depend on the processing

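Without any 1 array, the number of the 28 probe sets called ran from 8 to 15 for MCAO against sham in knockout mice, 9 to 16 in wild-type mice, 0 to 2 for the interaction, 0 to 0 between genotypes after MCAO and after sham, and 1 to 7 in naive mice. Over all 45037 probe sets these ranges were, in the same order, 3715 to 9583, 2438 to 4838, 0 to 5362, 18 to 138, 5 to 2207 and 7153 to 17919. At adjusted p under 0.01, 8 were called in knockout mice after MCAO and 0 in naive mice, where 3602 and 4842 of all were called. With 1 probe set per gene, the brightest, 4 of 9 genes were called in knockout and 6 in wild-type mice after MCAO. Over all 18193 genes 4545 and 2901 were called. With the mean over a gene's probe sets 5 and 5 were called, where 4243 and 3083 of all genes were. All these member calls were lower, and these counts are of 9 genes rather than 28 probe sets. Array weights called 1 in the interaction, 4 after sham and 9 in naive mice, where 6638, 12476 and 19879 of all 45037 probe sets were called. Fitting only the sham arrays called 1, where 6052 of all were called. The naive count was 0 without dim probe sets, 3 with median centring, 3 with repeated quantile normalization (1 higher and 2 lower under each), 7 with the Gapdh covariate, 7 with the actin covariate, 10 without both arrays of raised Gapdh difference and 6 (4 higher, 2 lower) without array 6 under repeated quantile normalization. Over all probe sets these naive fits called, in the same order, 936 (brighter probe sets only), 12217, 5046, 18215, 17439, 17034 and 11577. The cause of these shifts was not tested. For MCAO against sham the actin covariate called 10 in knockout mice (9 lower, 1 higher) and 18 in wild-type mice (16 lower, 2 higher). Over all probe sets it called 4724 and 6702 in these comparisons. With the replicate number as a block 12 were called in knockout and 12 in wild-type mice, 0 in the interaction and between genotypes after either surgery, and 1 in naive mice. Over all probe sets this setting called 6732 in knockout and 3207 in wild-type mice, and 2514 in the interaction. It called 61 between genotypes after MCAO, 1368 after sham and 6821 in naive mice. With group means taken out, 0 of 3 same-numbered pairs of knockout MCAO and sham arrays correlated above 0.1, and 1 of 3 in wild type. Between genotypes it was 2 of 7 pairs after MCAO, 0 of 3 after sham and 4 of 7 in naive mice. The naive pairs ran from r = -0.20 to 0.47. Whether the numbers mark a shared batch was not tested. Over all probe sets the interaction called 3336, and 0 without knockout sham array 3, 57 with the actin covariate and 6638 with array weights; the comparison of genotypes after sham called 2105, between 5 and 2207 without 1 sham array, 3 with the actin covariate and 12476 with array weights. Of the single probe set results, 2040 kept direction and side of the threshold with 1 array left out, 43 lost the call and 17 gained it; under the other settings these numbers were 1474, 22 and 65, and no called value changed sign. Sham groups of 3 arrays limit what the interaction and sham comparisons can show.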
